A study of Rattus norvegicus with 24 samples.

Results

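The genes described here encode the subunits of potassium channels. They were taken from the table of expression values by symbol, as every row whose gene symbol begins with Kcn and a further letter, apart from the Kcnip genes, which encode calcium sensor proteins. This gave 88 of 17711 rows and 87 different symbols, since Kcnk6 stands on 2 rows. Symbols alone chose the rows, and no measured value entered the choice. RNA was sequenced from the striatum and from the whisker follicles of male Sprague-Dawley rats, and 6 rats had self-administered methamphetamine (MA) and 6 saline (SA), which gives 24 libraries in 4 groups of 6. MA was infused intravenously at 0.05 mg/kg per active lever press in daily sessions of 2 h over 16 days, while SA rats pressed for saline alone. Rats of both groups had been trained with food pellets, had undergone surgery and had been chosen for earning enough pellets, so the SA rats are operated and trained controls. The sources used here state neither the age of the rats nor which part of the striatum was taken.

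Potassium channels let potassium leave the cell along its gradient and so hold the resting potential and end action potentials. Voltage-gated channels are tetramers of pore-forming subunits of the Kcna, Kcnc, Kcnd, Kcnh and Kcnq genes, and the Kcnf, Kcng, Kcns and Kcnv subunits form no channel alone but modify other voltage-gated channels. Inward rectifiers (Kcnj) set the resting potential, and in medium spiny neurons, the main neurons of the striatum, they are known for the hyperpolarized resting state of these cells. Tandem-pore (K2P, Kcnk) channels carry leak current, Kcnma1, Kcnn and Kcnt genes encode channels opened by calcium or sodium inside the cell, and Kcnab, Kcne and Kcnmb genes encode auxiliary subunits. In skin, potassium channels are known in the follicle epithelium and in the muscle and nerve around it.

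The promoters of 4 members are shown because their transcripts stood at opposite ends of the comparison of the tissues. Kcnab1 and Kcnj4 were abundant in the striatum and close to 0 in the whisker follicle, and Kcne1 and Kcnk16 were higher in the follicle. Each window runs from 250 bases before to 50 bases after the RefSeq start of the gene in the GRCr8 build, 5′ to 3′ on the strand of the gene, with every CG dinucleotide in capitals. Kcnab1 lies on chr2:151614301-151614600 (plus strand), Kcnj4 on chr7:112954498-112954797 (minus strand), Kcne1 on chr11:45076984-45077283 (minus strand) and Kcnk16 on chr15:4091441-4091740 (plus strand).
Kcnab1: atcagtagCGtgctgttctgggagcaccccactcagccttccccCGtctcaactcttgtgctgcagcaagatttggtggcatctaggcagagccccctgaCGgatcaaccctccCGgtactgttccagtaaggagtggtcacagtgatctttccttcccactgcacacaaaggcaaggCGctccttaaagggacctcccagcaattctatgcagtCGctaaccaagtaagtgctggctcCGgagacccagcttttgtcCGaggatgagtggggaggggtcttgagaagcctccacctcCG
Kcnj4: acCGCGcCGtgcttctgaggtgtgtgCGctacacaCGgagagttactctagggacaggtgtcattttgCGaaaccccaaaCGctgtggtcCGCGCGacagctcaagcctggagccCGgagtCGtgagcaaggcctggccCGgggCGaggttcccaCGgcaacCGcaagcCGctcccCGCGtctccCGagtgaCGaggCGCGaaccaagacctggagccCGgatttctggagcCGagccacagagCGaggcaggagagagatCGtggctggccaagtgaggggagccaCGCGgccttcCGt
Kcne1: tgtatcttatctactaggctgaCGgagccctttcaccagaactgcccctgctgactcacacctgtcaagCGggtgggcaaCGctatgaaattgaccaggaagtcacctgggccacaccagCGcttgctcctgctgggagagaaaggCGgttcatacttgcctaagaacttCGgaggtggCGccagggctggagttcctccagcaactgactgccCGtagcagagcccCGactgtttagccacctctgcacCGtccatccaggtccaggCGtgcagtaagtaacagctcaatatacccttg
Kcnk16: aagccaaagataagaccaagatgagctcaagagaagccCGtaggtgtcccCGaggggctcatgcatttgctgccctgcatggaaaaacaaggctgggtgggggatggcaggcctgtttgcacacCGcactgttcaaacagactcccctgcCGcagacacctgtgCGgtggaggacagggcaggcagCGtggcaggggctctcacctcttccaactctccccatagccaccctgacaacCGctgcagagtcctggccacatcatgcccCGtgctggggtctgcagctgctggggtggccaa
The Kcnj4 window holds 30 CG dinucleotides, Kcne1 11, Kcnab1 9 and Kcnk16 8. Among 64 windows found for 59 of the 87 symbols, the median was 14.5, beside 7 for all 33469 promoters in the table. The letters TATAAA, read on either strand, were in 2 of the 64 windows (3.13%) and in 14.2% of all promoters. None of these 4 windows holds them. These counts describe the windows only.

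The values are FPKM, fragment counts divided by the length of the transcript and by the size of the library, so that levels of different genes can be set side by side. A striatal library summed to between 348717 and 418892 FPKM and a follicle library to between 774567 and 1524570 FPKM, of which the 10 most abundant genes took 5.79% to 11.0% and 27.1% to 44.0%. The 9 medium spiny neuron markers (among them Drd1, Drd2 and Ppp1r1b) summed to between 2318.5 and 5808.7 FPKM in the striatum and to between 2.23 and 25.9 in the follicle, and the 8 hair shaft keratins to between 0.922 and 37.5 FPKM and to between 26992 and 90310 FPKM. In the follicle, the 4 endothelial markers found summed to at most 0.590 FPKM and the 5 neuronal markers to at most 38.6 FPKM, nearly all of it Tubb3 (10.6 to 38.3 FPKM), since Rbfox3, Snap25, Syt1 and Nefl reached at most 1.24 FPKM. Several libraries stood apart. Striatal SA library 4 and MA library 5 had the lowest sums of medium spiny neuron markers (2318.7 and 2318.5). Striatal MA libraries 3 and 4 had the highest sums of erythrocyte markers (1932 and 698, against at most 490.3 elsewhere). Striatal MA library 4 also had the lowest sum of neuronal markers of its tissue (587.1, against at least 799.0 in the others). Its sums of astrocyte (1309.8), microglial (564.3) and endothelial markers (216.5) were the highest of the striatum. That library held the lowest value of 19.77% and the highest of 19.996% of all genes tested. Follicle SA library 0 held the lowest value of 24.4% of all genes tested. Slc17a7 and Slc17a6, which mark glutamatergic neurons of cortex and of thalamus, also varied in the striatum. Slc17a7 was at 39.9 FPKM in SA library 1, 7.97 FPKM in MA library 3 and at most 1.95 FPKM in the other striatal libraries, and Slc17a6 was at 6.82 FPKM in SA library 4 and at most 1.35 FPKM elsewhere. Follicle SA library 5 had the highest sums of medium spiny neuron and oligodendrocyte markers of its tissue (25.9 and 76.96). The main results that rest on these libraries are given with and without them. In tissue RNA, fewer cells of a type and less RNA per cell cannot be told apart.

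The striatum and the whisker follicle differed in the transcript levels of most potassium channel genes. A mean FPKM of at least 1 over the 12 libraries of a tissue was reached by 56 members in the striatum (63.6%, beside 59.9% of all rows) but by only 16 in the follicle (18.2%, beside 51.6% of all rows), and 9 members reached it in both. All members together summed to 849.7 FPKM in the striatum and to 108.7 FPKM in the follicle. Kcna10 and both Kcnk6 rows were listed at 0 in all 24 libraries. The voltage-gated genes differed most between the tissues, with 21 of 29 at or above 1 FPKM in the striatum and 2 in the follicle, and with sums of 273.4 and 4.71 FPKM. The inward rectifiers numbered 11 and 2 of 15 (144.9 and 4.65 FPKM), the silent modifiers 7 and 2 of 10 (73.4 and 26.2 FPKM), and the calcium- or sodium-activated channels 5 and 2 of 7 (46.8 and 8.57 FPKM). The auxiliary genes numbered 5 and 2 of 12 (238.04 and 30.7 FPKM). The K2P genes were nearest to even, with 7 and 6 of 14 (72.4 and 33.7 FPKM).

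**Figure D1:**
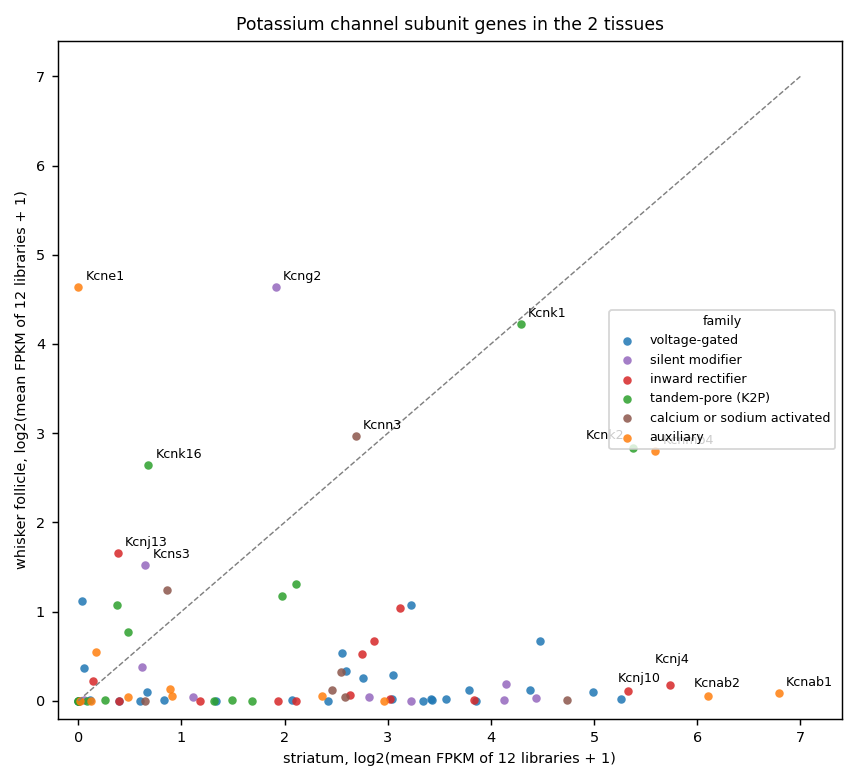
Mean level of potassium channel subunit genes in the striatum (horizontal axis) and in the whisker follicle (vertical axis), both as log2(mean FPKM of 12 libraries + 1), coloured by family, without Kcnrg, a regulator that belongs to none of them. The dashed line marks equal levels, and most members lie along the horizontal axis while Kcne1, Kcng2 and Kcnk16 lie well above the line.

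The member with the highest mean of 12 libraries was an auxiliary subunit in each tissue, though a different gene. As a family, the auxiliary genes had the largest sum in neither tissue. In the striatum, Kcnab1, a cytoplasmic beta subunit that speeds the inactivation of Kcna channels, had the highest level of all members, from 50.4 to 153.2 FPKM (mean 109.6), and Kcnab2, its relative, had from 39.3 to 85.1 FPKM (mean 67.9). In the follicle, 5 of 12 libraries listed Kcnab1 at 0, and its highest values were 0.347 FPKM in SA library 5, the library with the highest medium spiny neuron sum of this tissue, and 0.131 FPKM in the other 11. The reverse held for Kcne1, the small membrane protein that slows Kcnq1 channels in heart and inner ear. Kcne1 was listed at 0 in all 12 striatal libraries and reached from 11.0 to 42.5 FPKM (mean 23.96) in the follicle, where it lay above 82.7% of all rows. It was the most abundant member in SA rats (30.6 FPKM, beside 25.2 FPKM for Kcng2), while in MA rats it lay below Kcng2 in all 6 libraries (17.3 and 22.4 FPKM). Kcnq1, the pore subunit that Kcne1 joins, had from 0.745 to 1.78 FPKM in the follicle and at most 0.0980 in the striatum. Kcnmb4, the brain beta subunit of the calcium-activated channel Kcnma1, was at 47.3 FPKM in the striatum and 5.94 FPKM in the follicle, whereas Kcnma1 itself was at 4.51 and 0.0902 FPKM.

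Among the voltage-gated genes of the striatum, Kcnd2, the A-type channel of dendrites, was at 37.5 FPKM and Kcnh3 at 30.8 FPKM as means of 12 libraries. Kcnq3, a subunit of the M current, was lower, at 7.21 FPKM. Kcna4 was at 13.5 FPKM and Kcna2, an axonal channel, at 3.21 FPKM. Kcnc1, which is known for fast-spiking interneurons, was at 9.69 FPKM. None of these 6 genes exceeded 0.168 FPKM in any follicle library, and Kcna4 was listed at 0 in all 12. The follicle held Kcnq1 and Kcnh2, a channel best known from cardiac repolarization, at means of 1.17 and 1.11 FPKM.

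Of the silent modifiers, Kcnf1 (20.7 FPKM), Kcng1 (16.7 FPKM) and Kcnv1 (16.5 FPKM) led in the striatum. Kcng2 led in the follicle, with 12.4 to 38.0 FPKM (mean 23.8) against 1.76 to 4.99 FPKM (mean 2.77) in the striatum, so the groups of libraries did not overlap. Kcns3, a further modifier, was at 0.570 FPKM in the striatum and 1.88 FPKM in the follicle.

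Among the inward rectifiers, Kcnj4, which is abundant in forebrain neurons, was at 52.2 FPKM in the striatum and Kcnj2, of the same subfamily, at 7.10 FPKM. Kcnj10, the rectifier of astrocytes and oligodendrocytes, was at 39.3 FPKM. Of the subunits of the G protein-gated channels, Kcnj9 was at 7.70 FPKM, Kcnj3 at 2.81 FPKM and Kcnj6 at 0.317 FPKM. Kcnj11, the pore of the ATP-sensitive channel of neurons, was at 13.3 FPKM and Kcnj8, its vascular counterpart, at 3.31 FPKM. Kcnj13, a rectifier of transporting epithelia, led in the follicle with 1.25 to 3.85 FPKM (mean 2.15). In the striatum Kcnj13 was at or below 0.366 FPKM in 11 libraries and at 2.50 FPKM in MA library 3. That library had the highest sums of erythrocyte markers, of fibroblast markers and of smooth muscle and pericyte markers.

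The K2P genes were led in the striatum by Kcnk2, a channel opened by stretch and lipids, at 40.5 FPKM, by Kcnk1, at 18.6 FPKM, and by Kcnk4, a relative of Kcnk2, at 3.33 FPKM. In the follicle Kcnk1 was at 17.7 FPKM, Kcnk2 at 6.15 FPKM and Kcnk16, an alkaline-activated channel known from the pancreas, at 5.25 FPKM. Kcnk15, a relative of the acid-sensitive channels, was at 2.204 FPKM in the striatum and listed at 0 in all 12 follicle libraries. Of the channels opened by ions inside the cell, Kcnt1, which responds to sodium, was at 25.6 FPKM in the striatum and at 0 in 11 of 12 follicle libraries. Of the small-conductance calcium-activated channels, Kcnn2 was at 4.99 and 0.0272 FPKM and Kcnn3 at 5.45 and 6.83 FPKM in striatum and follicle. Kcnn4, the intermediate-conductance channel of epithelia and blood cells, was at 0.817 and 1.37 FPKM.

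The difference between the tissues was larger than the spread of the libraries for most members. Over all 88 rows, every follicle library lay below every striatal library for 58 members (65.9%) and above for 4, which were Kcne1, Kcng2, Kcnk16 and Kcnq1 (4.55%). Over all rows of the table these shares were 25.5% and 16.6% (42.1% in all). In limma on log2(FPKM + 1), 53 of the 63 members with a mean of at least 1 FPKM in either tissue were lower in the follicle of SA rats and 7 were higher, where a call needs both a fold of 1.5 or more and an adjusted p below 0.05. Of all genes tested, 43.8% were called lower and 31.5% higher (75.3% in all). Many of these members passed the filter through the tissue where they were high, so this count is a description. In MA rats the counts were also 53 and 7, beside 42.4% and 30.6% of all genes (73.0% in all). The median of all genes was at −0.30 on the log2 scale in SA rats, and a common median for all libraries moved it to 0.18 and the calls of all genes from 3629 higher and 5052 lower to 4798 and 3861. That scaling left 51 members lower and 9 higher.

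The log2 differences of single members, follicle minus striatum in SA rats, are given with the standard error, and for the largest also relative to the median of all genes. Kcnab1 differed by −6.66 (SE 0.24, relative −6.36, adjusted p = 1.89e-18), Kcnab2 by −5.88 (SE 0.14, relative −5.58, adjusted p = 2.88e-22) and Kcnj4 by −5.55 (SE 0.18, relative −5.25, adjusted p = 2.83e-19). Kcnab1, Kcnab2 and Kcnj4 passed the filter through the striatum alone, where they were high, so their adjusted p-values are a description. Kcnd2 differed by −5.20 (SE 0.21), Kcnj10 by −5.05 (SE 0.14) and Kcnh3 by −4.74 (SE 0.16). No fold is given for Kcna4, Kcnj3, Kcnj8 and Kcnk15, which were listed at 0 in all 6 follicle libraries of SA rats. The differences of genes with low follicle values depend on the added 1 FPKM and understate the change. Members present in both tissues differed less, as Kcnmb4 with −2.54 (SE 0.19), Kcnh2 with −2.47 (SE 0.19) and Kcnk2 with −2.39 (SE 0.23). Kcnj9 differed by −2.23 (SE 0.19), and all of these had an adjusted p of 8.79e-10 or less. The follicle mean of Kcnj9 reached 1 FPKM only with SA library 0 (2.95 FPKM), the other SA libraries lying between 0.233 and 1.12 FPKM. Without that library 15 members passed the filter in the follicle. Kcnk4 passed with −0.998 (SE 0.19, relative −0.70, adjusted p = 4.21e-05), but not under quantile normalization (−0.08) or a common median (−0.52).

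Higher in the follicle of SA rats were Kcng2 by 2.82 (SE 0.23, relative 3.12, adjusted p = 4.53e-11), Kcnk16 by 2.11 (SE 0.24, relative 2.40, adjusted p = 1.18e-08), Kcnj13 by 1.61 (SE 0.23), Kcnq1 by 1.05 (SE 0.11) and Kcns3 by 0.87 (SE 0.25, adjusted p = 0.00225). Kcnk16 and Kcns3 passed the filter through the follicle alone, where they were high, so their adjusted p-values are likewise a description. Kcne1 was also called, and no fold is given against a tissue where it was listed at 0. The seventh was Kcnk5, a K2P channel of epithelia, at 0.257 ± 0.0477 FPKM in the striatum and 1.19 ± 0.401 FPKM in the follicle (SD, n = 6), which was named after its values were seen. In 3 members no difference passed. Kcnk1 differed by 0.08 (95% interval −0.18 to 0.34), and by −0.24 in MA rats and −0.00 without follicle SA library 5, so its direction was not settled. Kcnn3 differed by 0.22 and Kcnn4 by 0.37, and both passed under a common median (0.70 and 0.84) and quantile normalization (0.83 and 1.27).

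Within the striatum the members varied widely from library to library. The highest of the 12 values was between 1.47 times (Kcnj11) and 17.8 times (Kcnj16) the lowest, with a median of 3.01 times, and 51 of 56 members varied at least 2-fold. Kcnj11 and Kcnk1 (1.58 times) were the steadiest. Kcnab1 had 153.2, 148.7, 134.1, 74.5, 56.8 and 117.8 FPKM in SA libraries 0 to 5 and 103.2, 145.3, 123.1, 144.9, 63.7 and 50.4 FPKM in MA libraries 0 to 5. It was low in SA libraries 3 and 4 and in MA libraries 4 and 5, and both groups spanned nearly the same range. Kcnd2 had 51.1, 47.4, 48.3, 26.4, 22.9 and 33.7 FPKM in SA and 38.8, 54.4, 38.1, 47.6, 20.2 and 20.5 FPKM in MA. Kcnj4 had 66.4, 71.8, 53.0, 36.4, 29.4 and 58.4 FPKM in SA and 60.2, 68.3, 53.3, 56.3, 34.8 and 37.8 FPKM in MA. For Kcnd2 and Kcnj4 too, the lowest 4 values were in these 4 libraries.

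The medium spiny neuron markers, in the same order, summed to 5808.7, 5772.4, 4525.5, 3035.5, 2318.7 and 4820.2 FPKM in SA and to 4464.5, 5478.1, 4959.7, 5315.6, 3803.9 and 2318.5 FPKM in MA, and were thus lowest in the same 4 libraries. In the 2 libraries with the lowest sums, 30 of the 56 members (53.6%) were below their 12-library median in both, beside 35.3% of all genes tested, and 14 (25.0%) were above it in both, beside 30.5%. In the 4 libraries, 25 members (44.6%) were below their median in all 4, beside 19.1%. The part of the cell make-up in these values was not tested.

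The 14 members that were high in both of the lowest libraries, chosen after their values were seen included Kcnc1, Kcnc2, Kcnc4 and Kcnd3. Kcnj16, a rectifier subunit that joins Kcnj10, had 17.1 FPKM in SA library 4 and 18.02 FPKM in MA library 5 and between 1.01 and 6.88 FPKM in the other 10. Kcnc2, a further channel of fast-spiking neurons, had 8.42, 8.67, 10.3 and 7.70 FPKM in SA libraries 2, 3 and 4 and MA library 5 and at most 2.80 FPKM elsewhere. Pvalb, the marker of fast-spiking interneurons, had 106.9, 149.4, 71.2 and 120.6 FPKM in these 4 libraries and between 15.04 and 56.1 FPKM in the other 8. Its part in the Kcnc2 values was not tested.

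**Figure D2:**
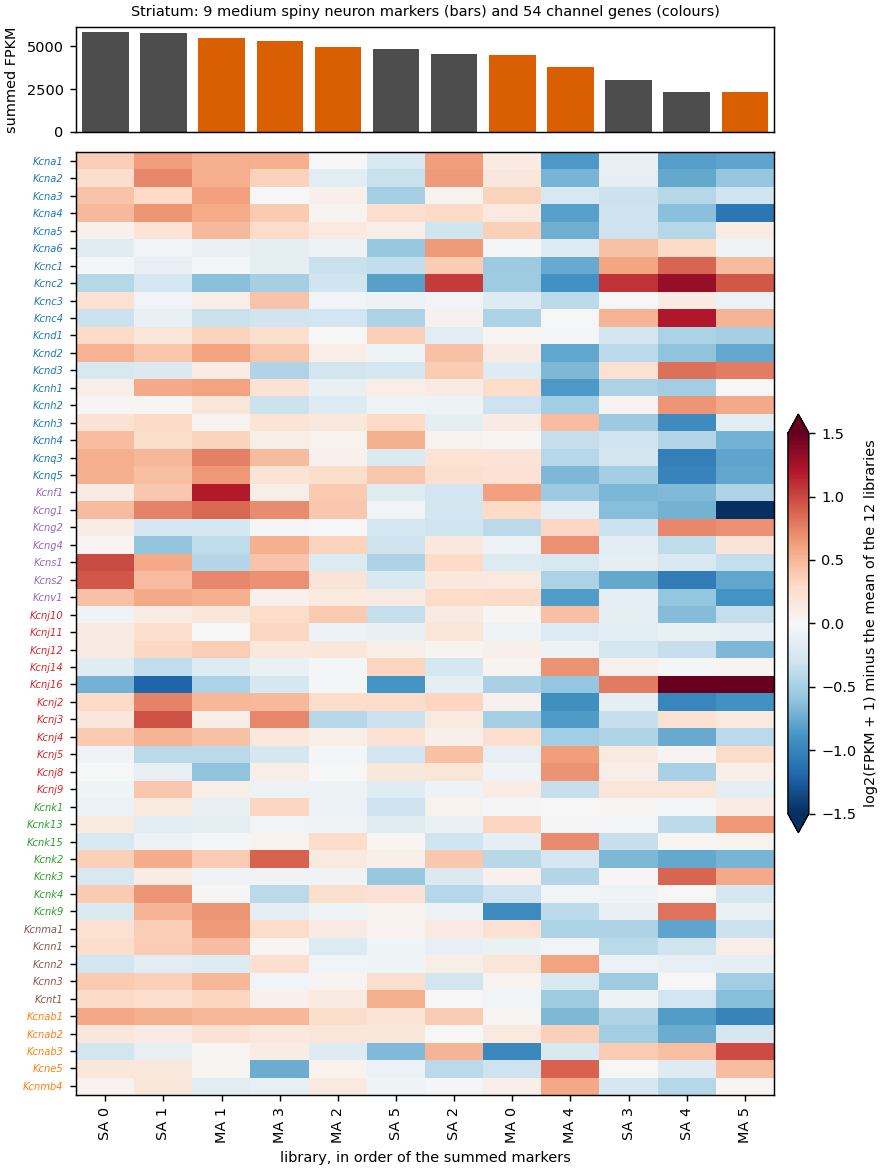
Striatal libraries in order of the summed FPKM of 9 medium spiny neuron markers (bars, grey for SA and orange for MA), and below them 54 of the members with a mean of at least 1 FPKM, coloured by log2(FPKM + 1) minus the gene's mean over the 12 libraries, with colours ending at −1.5 and 1.5 and gene names in family colours. Kcnab1, Kcnd2 and Kcnj4 are blue in the libraries at the right. Kcnj16 and Kcnc2 are red in SA library 4 and MA library 5, at the far right, but blue in MA library 4.

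The comparison of MA with SA rats asks whether MA self-administration changed these genes in the striatum. No member passed the threshold. Of 56 members tested, 0 were called by limma, and 1 of 10607 genes was (0.00943%). An unadjusted p under 0.05 was reached by 2 members (3.57%), both higher in MA, beside 8.26% of all genes (5.38% higher). In no member did the 6 MA libraries all lie above or all below the 6 SA libraries, beside 0.358% of all genes. The log2 fold changes ran from −0.64 (Kcnc2) to 0.43 (Kcnf1) with a median of 0.01, as for all genes (0.00), and 31 were above and 25 below 0. By family, 8 of 21 voltage-gated genes, 5 of 7 silent modifiers, 7 of 11 inward rectifiers, 5 of 7 K2P genes, 3 of 5 ion-activated channels and 3 of 5 auxiliary genes were above 0.

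The members with p under 0.05 were Kcng4, a silent modifier, and Kcnk15. Kcng4 had 5.90, 3.49, 6.58, 5.05, 4.21 and 4.45 FPKM in SA libraries and 5.40, 4.20, 7.57, 8.78, 9.93 and 6.76 FPKM in MA libraries. MA libraries 2 to 5 lay above every SA library and MA libraries 0 and 1 among them. The log2 fold change was 0.43 (SE 0.18, p = 0.0349, adjusted p = 0.597, exact permutation p = 0.0628). Kcnk15 had between 1.47 and 2.21 FPKM in SA (median 1.80) and between 1.83 and 4.15 FPKM in MA (median 2.26), so the groups overlapped, and MA library 4 had the highest value. Its log2 fold change was 0.31 (SE 0.14, p = 0.0482, adjusted p = 0.603, exact permutation p = 0.0433). Without MA libraries 3 and 4 the changes were 0.23 and 0.19, with p of 0.214 and 0.141. The count of members with p under 0.05 moved between 0 and 5 as single libraries were left out. The 5 came without MA library 5, beside 581 genes higher and 332 lower of 10593.

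Kcnj10 and Kcnc1 came next. Kcnj10 had 37.0, 41.4, 42.3, 34.7, 24.1 and 29.8 FPKM in SA and 39.0, 43.5, 50.5, 46.8, 53.0 and 29.7 FPKM in MA, and 4 of the MA libraries lay above every SA library. Its log2 fold change was 0.32 (SE 0.16, p = 0.0645, adjusted p = 0.619, exact permutation p = 0.0952). Of the 8 astrocyte markers, 7 were above 0, 4 with p under 0.05 and 0 called, with a median log2 fold change of 0.36. They summed to between 733.9 and 952.4 FPKM in SA and between 738.5 and 1309.8 FPKM in MA. By library, this sum and Kcnj10 were both highest in MA library 4 and both lowest in SA library 4. MA library 1 had a sum of 738.5 with Kcnj10 at 43.5 FPKM, and MA library 5 a sum of 975.1 with 29.7 FPKM. The 7 microglial markers were all above 0, 3 of them with p under 0.05 (median 0.49), as were the 2 erythrocyte markers found, both with p under 0.05 (median 1.12), and none of these was called. The 6 oligodendrocyte markers were split, with 2 above and 4 below 0, 0 with p under 0.05 and a median of −0.24. The part of these cells in the values of Kcnj10, Kcng4 and Kcnk15 was not tested. For Kcnj10, without MA libraries 3 and 4 the change was 0.21. Kcnc1 had 4.98 to 13.0 FPKM in MA (median 7.62) and 6.85 to 17.6 FPKM in SA (median 10.5), a log2 fold change of −0.44 (SE 0.23, p = 0.0811, adjusted p = 0.637, exact permutation p = 0.126). Its highest values in each group, 17.6 and 13.0 FPKM, were in SA library 4 and MA library 5, the libraries lowest in medium spiny neuron markers, and without the 4 libraries low in these markers, a choice made after seeing the data, its change was −0.22.

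For the other members known from medium spiny neurons or from drug action, the interval of the change was wide. The 95% interval of the log2 fold change was −0.81 to 0.53 for Kcnab1, −0.69 to 0.50 for Kcnd2, −0.49 to 0.50 for Kcnj4 and −0.86 to 0.52 for Kcnj2. These intervals follow from the spread among libraries, and the lack of a call does not show that the genes were unaffected. Narrower intervals were found for Kcnj9 (−0.39 to 0.09), Kcnj11 (−0.28 to 0.17) and Kcnk1 (−0.13 to 0.27). Kcnj3 had −0.86 to 0.31, Kcnk2 −0.63 to 0.65 and Kcnma1 −0.33 to 0.64.

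**Figure D3:**
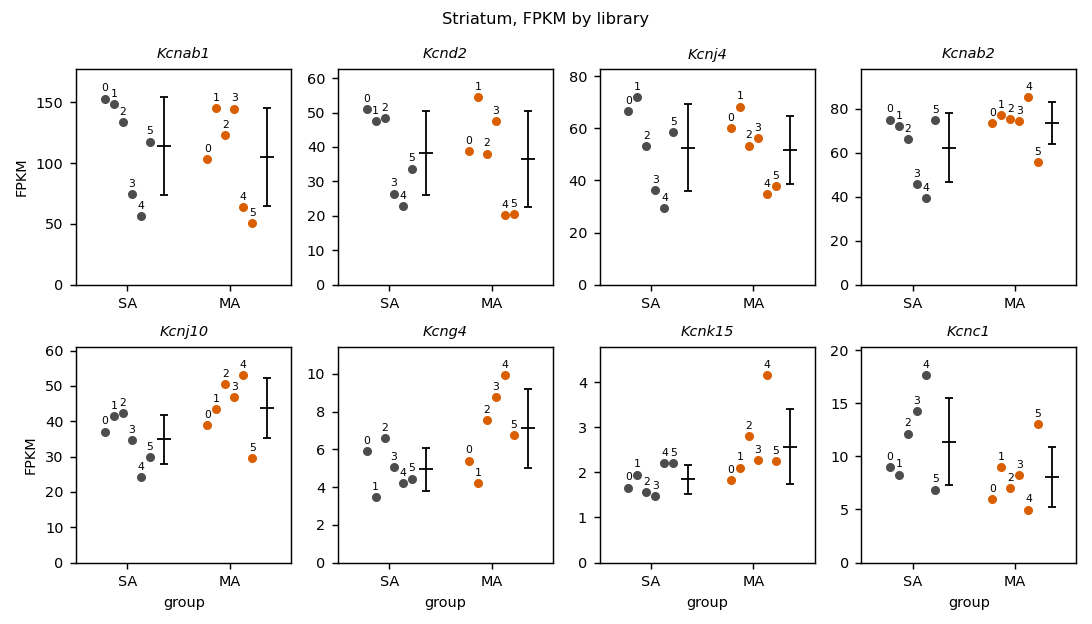
FPKM of 8 members in the striatum, on axes that start at 0, with a point for each library and its index of 0 to 5 beside it, SA in grey and MA in orange, and the mean and SD (n = 6) to the right of each group. Kcnab1, Kcnd2, Kcnj4 and Kcnab2 vary within both groups, and in Kcng4, Kcnk15, Kcnj10 and Kcnc1 the groups differ in mean and overlap.

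In the whisker follicle, where the same question was asked of skin tissue, 0 of 16 members were called, as were 0 of all 9138 genes tested (0.0%), and 953 of all genes had an unadjusted p under 0.05 (10.4%). Of the members 2 had one (12.5%), both lower in MA, beside 5.18% of all genes that were lower, and 10 of 16 were below 0, with a median of −0.12 beside −0.01 for all genes. Groups overlapped for all 16, where 0.482% of all genes did not overlap. Kcne1 had 11.0, 35.6, 42.5, 27.5, 29.6 and 37.3 FPKM in SA libraries 0 to 5 and 13.8, 13.0, 17.1, 26.4, 19.9 and 13.8 FPKM in MA libraries. Every MA library lay below the SA median and below 5 of the SA libraries, and SA library 0 was the lowest of all 12. The means were 30.6 ± 11.0 FPKM in SA and 17.3 ± 5.16 FPKM in MA (SD, n = 6). The log2 fold change was −0.72 (SE 0.28, p = 0.0232, adjusted p = 0.465, exact permutation p = 0.0519).

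Kcnk16 had 2.93, 8.24, 5.19, 9.86, 6.25 and 6.98 FPKM in SA and 3.24, 4.54, 4.32, 1.94, 4.32 and 5.19 FPKM in MA, with a log2 fold change of −0.59 (SE 0.24, p = 0.0294, adjusted p = 0.465, exact permutation p = 0.0519). SA library 0 again lay among the MA libraries. Without SA library 0, both genes passed the threshold, Kcne1 with −0.98 (SE 0.18, adjusted p = 0.0168), and with all 5 SA libraries above all 6 MA libraries, and Kcnk16 with −0.77 (SE 0.20, adjusted p = 0.0241). Leaving out that library raised the calls across the whole table in the same way. With it left out, 1219 of 9059 genes were called (13.5%, with 6.05% lower) beside 2 of 15 members (13.3%). The groups did not overlap in 7.22% of genes (4.57% with MA lower) and in 1 member (6.67%), so the members were called at about the share of all genes. Of 8 hair shaft keratins, 7 were above 0 in MA in the follicle with all libraries, with a median log2 fold change of 0.73, 3 higher and 1 lower at p under 0.05, and 0 called. Their part in the values of Kcne1 and Kcnk16 was not tested.

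Kcnh2 and Kcnmb4 had the next smallest p. Kcnh2 had 0.502 to 1.54 FPKM in SA (median 0.618) and 0.625 to 2.13 FPKM in MA (median 1.39), with every MA library above the SA median and a log2 fold change of 0.41 (SE 0.20, p = 0.0598, exact permutation p = 0.0628). Kcnmb4 had 4.45 to 9.67 FPKM in SA (median 7.04) and 3.12 to 6.75 FPKM in MA (median 5.19), with every MA library below the SA median and a log2 fold change of −0.41 (SE 0.22, p = 0.0840, exact permutation p = 0.106). Neither passed with or without SA library 0 (adjusted p between 0.0972 and 0.466). With libraries weighted by their fit, Kcne1 (−1.05), Kcnk16 (−0.67) and Kcnmb4 (−0.68) were called, beside 12.7% of all genes. Other members abundant in the follicle were not called with all libraries at equal weight. Kcng2 had 25.2 ± 9.12 FPKM in SA and 22.4 ± 4.86 FPKM in MA, with a 95% interval of the log2 fold change of −0.63 to 0.41. Kcnk1 had 19.2 ± 3.29 and 16.2 ± 3.78 FPKM (−0.57 to 0.07), Kcnn3 6.53 ± 0.716 and 7.13 ± 1.43 FPKM (−0.19 to 0.38) and Kcnk2 6.42 ± 0.680 and 5.88 ± 1.04 FPKM (−0.37 to 0.13).

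**Figure D4:**
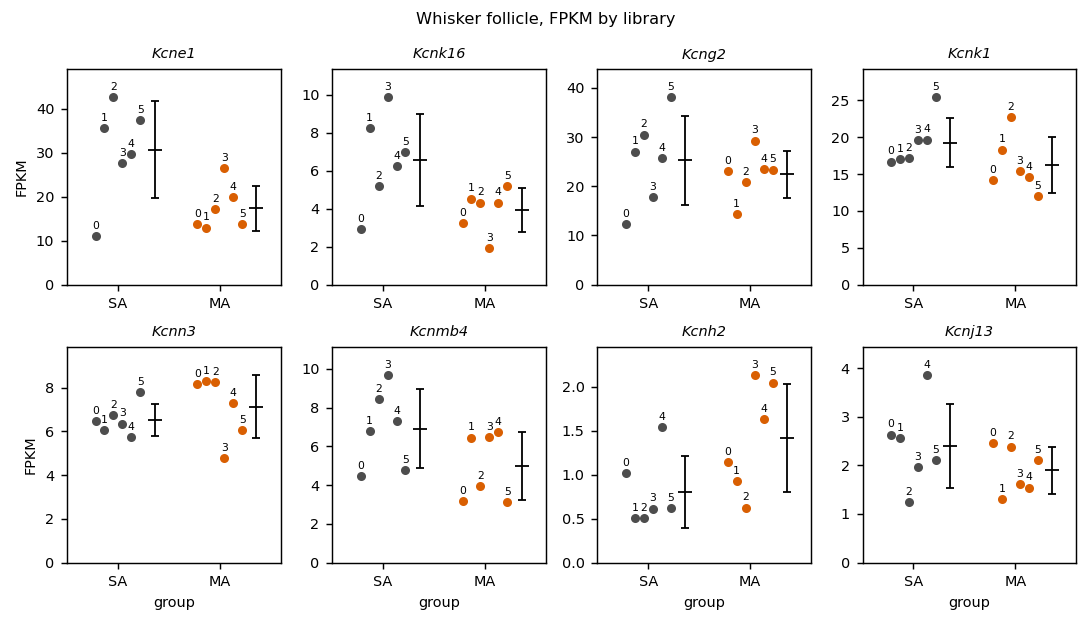
FPKM of 8 members in the whisker follicle, drawn as for the striatum with a point and index for each library and the mean and SD (n = 6) beside each group. For Kcne1 and Kcnk16 all SA libraries except library 0 lie at or above the upper part of the MA values, and Kcng2, Kcnk1 and Kcnn3 overlap throughout.

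**Figure D5:**
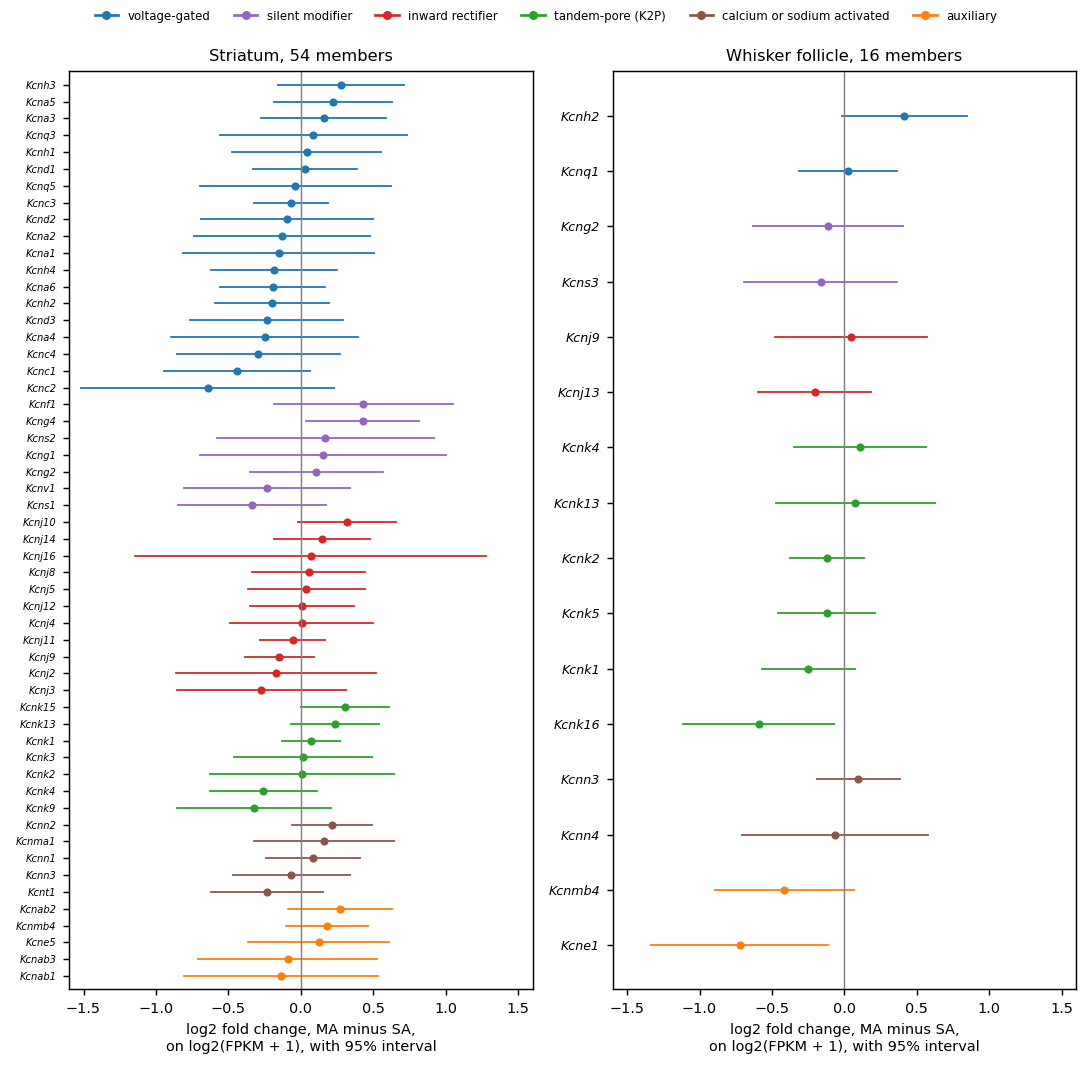
Log2 fold change of tested members, MA minus SA, on log2(FPKM + 1) with its 95% interval, for 54 members in the striatum (left) and 16 in the whisker follicle (right), coloured and ordered by family. The intervals of Kcng4 and Kcnk15 in the striatum and of Kcne1 and Kcnk16 in the follicle leave out 0, and none of these passed the adjusted threshold.

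A single fit over all 24 libraries asked if the MA effect was unlike in striatum and follicle. Of 63 members 0 were called, and 1 of 11533 genes was (0.00867%). An unadjusted p under 0.05 was found in 3 members (4.76%), beside 11.1% of all genes. These were Kcne1 with −0.72 (SE 0.30, adjusted p = 0.433), Kcnh2 with 0.61 (SE 0.27, adjusted p = 0.437) and Kcnmb4 with −0.59 (SE 0.26, adjusted p = 0.437), follicle minus striatum on the log2 scale. For Kcne1, listed at 0 in the striatum, this value is the follicle change itself. Kcnh2 had a lower mean in MA in the striatum (8.93 ± 2.202 FPKM in SA and 7.79 ± 2.67 FPKM in MA) and a higher mean in MA in the follicle (0.801 ± 0.410 and 1.42 ± 0.616 FPKM). Kcnmb4 showed the opposite, with 44.1 ± 6.58 and 50.4 ± 10.4 FPKM in the striatum. Without follicle SA library 0, Kcne1 was called (−0.98, adjusted p = 0.00926), which is 1 of 63 members (1.59%) beside 10.8% of all genes. Neither of the others was called without that library. Without the 4 striatal libraries low in medium spiny neuron markers, Kcnmb4 differed by −0.36 and Kcnh2 by 0.55, and without striatal SA library 4 Kcnh2 differed by 0.50.

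Proteins that bind or place these channels were followed as a list of 20 partner genes, of which 17 were found. The list holds Dpp6 and Dpp10, subunits of Kcnd channels, and Abcc8 and Abcc9, the sulfonylurea receptors that complete Kcnj11 and Kcnj8 channels. It also holds Lgi1, which acts on axonal Kcna channels, Cntnap1, and scaffold genes such as Dlg4. Cntnap2, also listed, was not found. In the striatum 14 were tested, 7 above and 7 below 0 in MA, with a median of −0.02, 0 with p under 0.05 and 0 called. All 14 were called lower in the follicle of SA rats, beside 43.8% of all genes, after most had passed the filter through the striatum. Dpp6 was at 72.2 ± 16.5 FPKM in the striatum and 0.0725 ± 0.178 FPKM in the follicle of SA rats (SD, n = 6), Dlg4 at 346.8 ± 94.1 and 0.762 ± 0.568 FPKM and Cntnap1 at 107.04 ± 31.8 and 0.560 ± 0.242 FPKM. Of the hyperpolarization-activated Hcn channels, relatives that pass sodium and potassium, the 3 tested were likewise called lower in the follicle of SA rats, and 0 were called for MA in the striatum. Hcn2 had 55.9 ± 7.95 FPKM in the striatum of SA rats and 61.04 ± 10.5 FPKM in that of MA rats, and 0.905 ± 0.215 FPKM in the follicle of SA rats.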

How the data were processed

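The values are FPKM that the authors computed with Cufflinks and deposited as 1 table with a column for each of 24 libraries. Per the paper's methods reads were trimmed with Cutadapt and aligned to rn6 with TopHat2, while the tools in the submitters' processing notes are STAR 2.6.0c and Cufflinks 2.2.1 after bcl2fastq, with the same build. FPKM carry no read counts, so the depth behind a value is unknown, and errors and p-values here measure the spread between libraries. Columns were assigned to groups by name. Their index of 0 to 5 is not tied to a rat number, and serves here as the library's name.

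In each tissue, log2(FPKM + 1) of MA and SA libraries was compared by limma 3.58.1 in R 4.3.3 with trended moderation, for every gene whose mean over the 12 libraries was 1 FPKM or more, and the tissues and the interaction in a fit of 4 groups over genes that reached 1 in either tissue. This stands in for the study's Cuffdiff, which needs reads. A call required a fold of 1.5 or more together with a p below 0.05 after Benjamini-Hochberg adjustment over all genes. Single members were also compared by an exact permutation test over 924 assignments, whose smallest p is 0.00216 and which was not adjusted over genes. All tests were two-sided. The limma fits within each tissue were also run on simulated data with independent normal noise for each gene. Such data hold no shifts of whole libraries, so that run cannot judge fits such as the one without follicle SA library 0. The members, gene lists and tests were chosen with earlier results of these data known. The text names 3 members of each family with the highest mean in each tissue, those with an unadjusted p under 0.05, the 5 with the largest tissue difference in each direction, the 3 smallest interaction p and members of known roles, 38 in all, and a few members counted here are not reported singly or drawn. Kcnc2, Kcnc4, Kcnd3, Kcnj16 and Kcnk5 were added after their values were seen. Promoters came from RefSeq (GRCr8), which was used for no other coordinate. As alternatives, libraries were weighted, brought to a common median or quantile normalized, the moderation was run with no trend, the pseudocount was set to 0.1 or 0.5, the filter was dropped or raised to 5 FPKM, calls were made on the adjusted p alone, and MA rats replaced SA rats in the tissue contrast. Further alternatives were leaving out each library in turn and leaving out the libraries that stood apart, of which the striatal ones low in medium spiny neuron markers were chosen after seeing the data.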

Additional observations from a re-analysis of the deposited data

Results flagged for a closer look

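In 98 groups of 6 libraries, those of the members named in the text with a mean of at least 1 FPKM in the tissue, the gap between the highest or lowest library and its nearest neighbour was tested against Dixon's critical value of 0.625 of the range, which chance exceeds in about 1 of 20 groups. It was exceeded in 11. The genes tested include Kcnj16 and Kcnc2, which were added after their high values were seen, so the 11 cannot be set against that rate. In the striatum of SA rats these were Kcng2 at 4.99 FPKM and Kcnh2 at 13.4 FPKM, both in library 4, the others lying between 1.90 and 2.92 and between 7.63 and 8.38 FPKM, Kcnj16 at 17.1 FPKM in library 4, and Kcnj3 at 5.99 FPKM in library 1, the library with the highest Slc17a7 (39.9 FPKM). Kcnj3 was next highest, at 4.93 FPKM, in MA library 3, which was also next in Slc17a7 (7.97 FPKM), and the part of cortical neurons in these values was not tested. In the striatum of MA rats they were Kcnj11 at 16.6 FPKM in library 3, Kcnmb4 at 70.2 FPKM in library 4, and Kcnj16 at 18.02 FPKM and Kcnc2 at 7.70 FPKM, both in library 5. In the whisker follicle of SA rats they were Kcnj9 at 2.95 FPKM in library 0 and Kcnk1 at 25.4 FPKM in library 5, and in that of MA rats Kcnn4 at 3.335 FPKM in library 3, the others lying between 0.599 and 1.23 FPKM. Every one of the 11 was a high value, on a scale that was not logarithmic.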

How the results depend on the processing

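Under all alternatives run, the calls of members in the striatum stayed at 0 and those lower in the follicle between 36 and 59. The filter also changed the genes tested. In SA rats 3576 of 8858 genes were called lower at a mean of at least 5, and 5274 of 14711 with no filter. In the follicle 3 members were called for MA with weighted libraries and 2 without SA library 0, beside 12.7% and 13.5% of all genes, and for the interaction 3 and 1, beside 1380 of 11533 and 1241 of 11527 genes. At a mean of at least 5 FPKM, 3 members were higher in the follicle, beside 3189 of 8858 genes in SA rats. The striatal count with p under 0.05 was 6 with weighted libraries (10.7%), beside 13.1% of all genes. It was 1 at a mean of at least 5, beside 446 genes higher and 186 lower of 7605. It was also 1 with quantile normalization (407 and 424 of 10607 genes) and with a common median (402 and 429 of 10607). Without MA libraries 3 and 4 it was 1 as well (276 and 127 of 10564). The follicle count with p under 0.05 was 4 with no filter (6.06%), with weighted libraries (25.0%) and without SA library 0 (26.7%), beside 8.43%, 41.3% and 39.8% of all genes. With single libraries left out, the called members ranged from 0 to 2 in the follicle and from 0 to 1 for the interaction, where follicle SA library 0 alone changed the count. The p under 0.05 count ranged from 0 (without MA library 2 or 3) to 5 (without MA library 5) in the striatum and from 1 to 4 (without SA library 0 or MA library 2) in the follicle. Of all genes, these striatal fits had 475 higher and 236 lower of 10611, 496 and 224 of 10571, and 581 and 332 of 10593. The follicle fit without MA library 2 had 291 and 351 of 9131. The tissue difference of Kcnk1 reversed in MA rats (−0.24) and without follicle SA library 5 (−0.0024). The causes were not tested. No paired analysis was possible because the columns carry no rat number, so the striatum and follicle of a rat could not be matched and the rat was not run as a block.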
